A study of Mus musculus with 10 samples.

Results

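Aminoacyl-tRNA synthetases join each amino acid to its tRNA, and each cell carries one set for the cytosol and one for the mitochondrion. Both sets are encoded in the nucleus. Most amino acids have a separate gene for each compartment, while Gars and Kars each encode the enzyme of both compartments and Eprs carries the glutamyl and prolyl activities in one cytosolic protein. Many cytosolic synthetase genes are known targets of ATF4, the transcription factor of the amino acid response, and part of the cytosolic enzymes assemble in the multisynthetase complex. The genes were taken by symbol, as those named with a one-letter amino acid code and "ars", with or without a final 2, plus Eprs, Farsa, Farsb and Tarsl2, and without Lars2. This gave 37 genes of 13976 in any of the 3 deposited tables, of which 21 were counted as cytosolic and 16 as mitochondrial. Tarsl2 encodes a cytosolic threonyl enzyme in spite of its final 2 and was counted with the cytosolic genes.

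The cells were SMB56, a spontaneous medulloblastoma line from Ptch+/- mice grown as neurospheres, and SMB56-shSufu, the same line with a short hairpin against Sufu, an inhibitor of the hedgehog pathway. SMB56 had received DMSO, 0.1 µM THZ1, a covalent inhibitor of the transcription kinase CDK7, or 1 µM GDC-0449 (vismodegib), an inhibitor of the hedgehog receptor SMO. SMB56-shSufu had received DMSO or 0.1 µM THZ1. Each of the 5 groups had 2 libraries taken after 8 h, and all cells shared the Ptch+/- background and were at passage 10 to 15. Each genotype was 1 line, and nothing in the labels says that the 2 libraries of a group came from separate cultures, so the tests measure the spread between these libraries.

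Under DMSO, Sufu stood at 12.7 and 11.6 FPKM in SMB56 and at 3.36 and 3.19 FPKM in SMB56-shSufu. Under THZ1 it stood at 18.5 and 19.7 FPKM in SMB56 and at 11.7 and 10.1 FPKM in SMB56-shSufu. The knockdown line under THZ1 was therefore near the DMSO level of SMB56. The part of the Sufu level in the THZ1 results of the lines was not tested. FPKM is the authors' count of fragments scaled to transcript length and library size. Total counts were 10614268 to 14986389 per library in the SMB56 tables and 30100041 to 33254885 in the SMB56-shSufu table. The share of counts from genes of the mitochondrial genome was taken over the genes each table holds. In the SMB56 THZ1 table it was 3.75% and 3.74% under DMSO and 7.55% and 6.55% under THZ1. In the GDC-0449 table it was 3.29% in both of the same DMSO libraries and 3.70% and 3.52% under GDC-0449. It was 5.92% and 8.29% in SMB56-shSufu under DMSO and 13.0% and 13.1% under THZ1. Of 8 markers of granule neuron progenitors and hedgehog medulloblastoma, 6 were in each SMB56 table and 7 in the SMB56-shSufu table, with a summed level of 430 to 820 FPKM per library. No endothelial marker of 3 was in any table, and of 4 microglial markers only Cd68 was, at 1.23 and 1.44 FPKM under DMSO and 17.8 and 16.4 FPKM under THZ1 in SMB56 and at 7.16 and 5.87 against 36.7 and 29.5 FPKM in SMB56-shSufu. Of 4 oligodendrocyte markers 2 or 3 were in each table, with sums of 3.80 to 5.80 FPKM under DMSO and 1.67 to 2.61 FPKM under THZ1, and the 3 astrocyte and 3 fibroblast markers summed to at most 2.37 FPKM in any library. The part of the mitochondrial share and of these markers in the results below was not tested.

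All 37 synthetase genes were in the SMB56-shSufu table, 35 in the GDC-0449 table, which lacks Iars2 and Vars2, and 34 in the SMB56 THZ1 table, which lacks Fars2, Nars and Vars. The last table holds almost only genes that differed between THZ1 and DMSO in the authors' own test, with 8 exceptions among 10007 genes. The 3 missing genes therefore enter no value of THZ1 in SMB56. Every member listed passed the filter on low counts.

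Promoter stretches are shown for the cytosolic genes that hold the C/EBP-ATF response element (CARE), the binding sequence of ATF4, because all 5 of these genes were called lower under GDC-0449, as given below. RefSeq windows of the GRCm38.p6 build, from 250 bases before to 50 after the start site, were found for 26 of the 37 genes, 13 of each compartment. The letters TGATGNAA on either strand were found for 5 of the 13 cytosolic genes, 0 of the 13 mitochondrial genes and 3.97% of all 32851 windows. A gene was counted if any of its windows matched, while the share over all windows is per window. The counts and the share are therefore not like measures. Capitals mark the match, and each stretch is read along the strand of the gene.
Aars, chr8:111033704-111033763, plus strand: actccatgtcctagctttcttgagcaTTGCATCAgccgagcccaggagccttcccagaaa
Aars, chr8:111033807-111033866, plus strand: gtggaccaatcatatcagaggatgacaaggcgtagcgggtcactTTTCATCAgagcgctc
Gars, chr6:55037945-55038004, plus strand: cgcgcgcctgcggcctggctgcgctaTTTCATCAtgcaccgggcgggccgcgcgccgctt
Iars, chr13:49682095-49682154, plus strand: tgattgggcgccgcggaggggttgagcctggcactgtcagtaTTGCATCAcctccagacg
Tars, chr15:11399640-11399699, minus strand: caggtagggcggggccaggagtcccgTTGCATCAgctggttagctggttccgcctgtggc
Yars, chr4:129189868-129189927, plus strand: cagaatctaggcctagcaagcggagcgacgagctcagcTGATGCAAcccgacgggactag

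In Gars and Tars the match began 30 and 15 bases before the annotated start, in Iars and Yars at base 8 and 4 of the transcript, and in Aars at both 112 before and base 10 after it. A match of letters is a description of the window and not a measured site.

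In the same windows the motif of NRF1, a regulator of nuclear genes for mitochondria, was searched on both strands. It was found for 3 cytosolic genes (Farsb, Kars, Tars) and 2 mitochondrial ones (Iars2, Mars2), and in 4.6% of all windows. Under THZ1 in SMB56, Farsb (-1.57), Iars2 (-0.43) and Tars (-0.10) had log2 fold changes below 0 and Kars (0.29) above 0. Tars and Kars turned sign with the scaling, as given below. The part of these letters in the folds was not tested. The stretch of Mars2, the mitochondrial methionyl enzyme, is shown because Mars2 had the highest rise of all members under THZ1.
Mars2, chr1:55237142-55237201, plus strand: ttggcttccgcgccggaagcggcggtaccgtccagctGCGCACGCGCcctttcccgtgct

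The ETS letters CCGGAAGT were found for 1 cytosolic gene (Farsa) and 1 mitochondrial gene (Rars2), and in 3.89% of all windows.

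Per kilobase, cytosolic synthetase mRNAs were the more abundant class in untreated SMB56. Vars, the valyl enzyme, was highest at 79.6 ± 1.13 FPKM (SD, n = 2) under DMSO, followed by Gars, the glycyl enzyme, at 76.3 ± 0.54 and Kars, the lysyl enzyme, at 63.9 ± 3.1. Nars, the asparaginyl enzyme, at 60.5 ± 4.21 FPKM did not separate from Kars or from Eprs, at 57.4 ± 0.949 FPKM, by more than their spread, and the libraries of Eprs lay below those of Kars. Hars2, the mitochondrial histidyl enzyme, was the highest of its class at 32.8 ± 0.595 FPKM, level with the cytosolic Tars at 33.9 ± 1.04. At the bottom stood Nars2, the mitochondrial asparaginyl enzyme, at 2.34 ± 0.0916 FPKM and Mars2 at 1.73 ± 0.1. Tarsl2 was the lowest cytosolic gene at 4.47 ± 0.388 FPKM, well under its partner for threonine, Tars. The same order was not tested in SMB56-shSufu, where Gars was first at 140.2 ± 0.367 FPKM.

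THZ1 in SMB56 lowered most synthetase mRNAs of both compartments and raised a small set, of 2 cytosolic and 4 mitochondrial genes. Under relative log expression scaling 4 cytosolic and 4 mitochondrial genes were called higher. Of 34 members, 6 were called higher and 28 lower (edgeR quasi-likelihood test, adjusted p under 0.05), in a table where 44.3% of 9863 genes tested were called higher and 55.2% lower. With 99.5% of the genes called, the call itself sets no member apart. Among all called genes 44.6% were higher, against 54.7% by DESeq2, which gave 3 cytosolic members higher and 12 lower and 4 mitochondrial members higher and 8 lower. The median log2 fold change was -0.87 over 19 cytosolic and -0.82 over 15 mitochondrial members, beside -0.31 over all genes tested. Relative to that all-gene median the classes stood at -0.55 and -0.50, with 13 of 19 cytosolic and 10 of 15 mitochondrial members below it. In these bulk samples fewer cells of a type and less RNA per cell cannot be told apart. Values below are CPM, a gene's count relative to the TMM-scaled library total, computed within each comparison.

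Mars2 was at 22.3 and 24.9 CPM in the DMSO libraries and at 125 and 124 CPM in the THZ1 libraries of SMB56. The groups were far apart, with a log2 fold change of 2.40 ± 0.07 (SE, edgeR adjusted p = 1.5e-17). Its cytosolic partner Mars, the methionyl enzyme of the multisynthetase complex, went the other way, from 132 and 127 CPM to 66.4 and 59.2 CPM (-1.04 ± 0.06). Nars2 rose from 8.81 and 8.09 CPM to 20.7 and 20.0 CPM (1.27 ± 0.13), and both treated libraries were above both controls. Qars, the glutaminyl enzyme, was at 120.5 and 119.8 CPM under DMSO and at 255 and 254 CPM under THZ1 (1.08 ± 0.04). It was the cytosolic member with the highest rise, and mitochondria have no glutaminyl synthetase of their own in mammals. Tars2, the mitochondrial threonyl enzyme, rose from 50.2 and 55.3 CPM to 100.9 and 96.0 CPM (0.90 ± 0.06).

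The other 2 members called higher in SMB56 depended on the scaling. Cars2, the mitochondrial cysteinyl enzyme, had 31.7 and 32.8 CPM under DMSO and 44.6 and 47.2 CPM under THZ1 (0.51 ± 0.07), and was at -0.16 when tested on log2(FPKM + 1). Kars had 205 and 221 CPM against 261 and 258 CPM (0.29 ± 0.05), and was at -0.27 on log2(FPKM + 1) and -0.08 when scaled by library size. Scaled to the transcripts of the mitochondrial genome, whose share rose under THZ1, Mars2 alone of the 34 members stayed above 0 (1.13), with Qars at -0.18 and Nars2 at -0.01.

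Members of both compartments fell in SMB56 by more than the median of their class. Cars, the cytosolic cysteinyl enzyme, fell from 73.7 and 74.4 CPM to 17.7 and 20.1 CPM (-1.98 ± 0.08). Rars2, the mitochondrial arginyl enzyme, fell from 34.8 and 33.7 CPM to 10.6 and 6.69 CPM (-1.97 ± 0.13). No treated library of these genes reached a control library. Dars, the cytosolic aspartyl enzyme, fell from 164 and 162 CPM to 57.5 and 54.3 CPM (-1.54 ± 0.05), whereas Rars, the cytosolic arginyl partner, had 99.8 and 100.4 CPM against 91.3 and 83.0 CPM. The fall of Rars, -0.20 ± 0.06, turned to 0.11 under relative log expression scaling, which moved the median of all genes by 0.31. The same shift put Tars, Farsa, Hars and Hars2 above 0, so that 11 of the 34 members lay above 0 against 6. Eprs fell from 512 and 515 CPM to 404 and 394 CPM (-0.36 ± 0.04), Gars from 316 and 318.5 CPM to 207 and 217 CPM (-0.58 ± 0.04), and Tarsl2 from 24.1 and 23.9 CPM to 9.47 and 9.87 CPM (-1.31 ± 0.12).

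**Figure D1:**
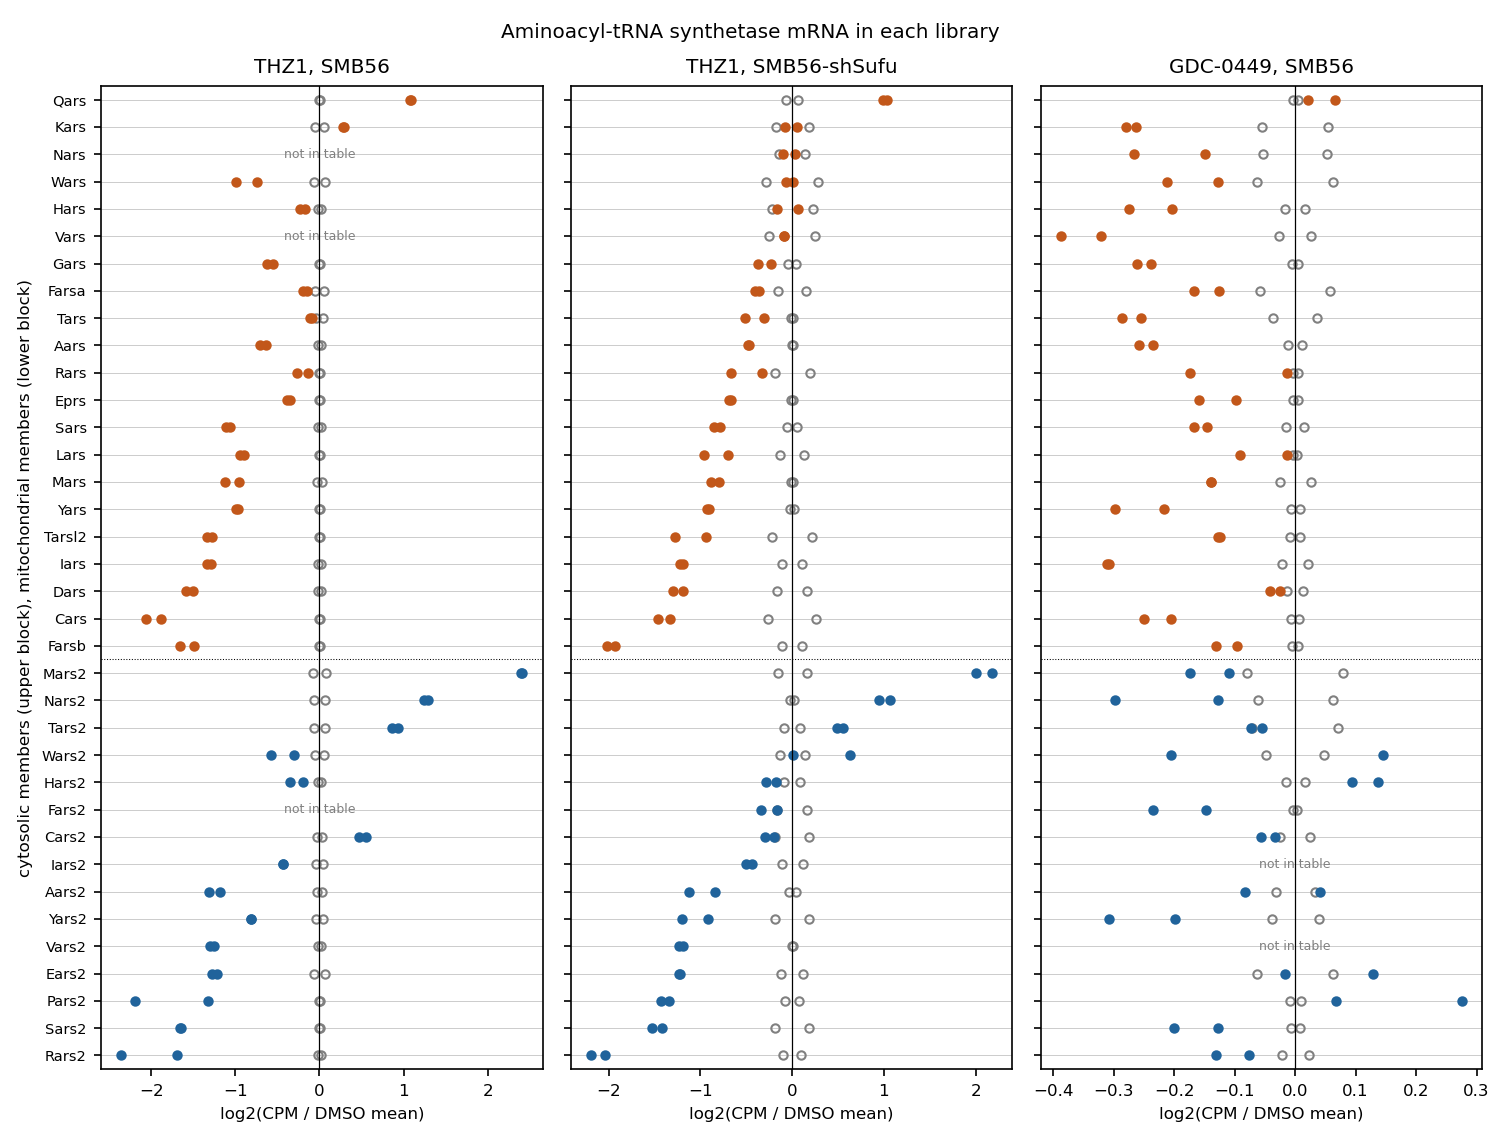
Each row is a member and each point a library, plotted as log2 of its CPM over the DMSO mean of the same comparison. Open grey points are DMSO libraries and filled points treated ones (orange cytosolic, blue mitochondrial), with a separate x scale in each panel. THZ1 moved Mars2, Nars2, Qars and Tars2 up and most others down in both lines, while GDC-0449 shifted many cytosolic members slightly down.

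In SMB56-shSufu, THZ1 gave 4 members called higher and 23 lower of 37, where 61.9% of 11886 genes were called, 29.5% higher and 32.3% lower. The cytosolic median was -0.50 with 14 of 21 lower and 1 higher, and the mitochondrial median -0.72 with 9 of 16 lower and 3 higher, beside -0.04 over all genes. The 4 higher members were Mars2, Qars, Nars2 and Tars2. Mars2 went from 23.6 and 19.0 CPM to 85.0 and 95.9 CPM (2.09 ± 0.16, edgeR adjusted p = 7.3e-07). Qars went from 79.1 and 86.3 CPM to 169 and 164 CPM (1.01 ± 0.14), and Nars2 from 7.92 and 7.69 CPM to 15.1 and 16.3 CPM (1.01 ± 0.19). In each of these the treated pair lay above the control pair. When tested on log2(FPKM + 1), Mars2 was the 1 member still called higher (1.23). Scaling by library size lowered the share of higher genes among those called from 47.7% to 24.9%, with 1 cytosolic and 2 mitochondrial members then higher and 20 and 12 lower.

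In SMB56-shSufu, Rars2 fell from 41.5 and 36.3 CPM to 9.47 and 8.51 CPM (-2.11 ± 0.17). Farsb, the beta subunit of the cytosolic phenylalanyl enzyme, fell from 86.9 and 74.7 CPM to 21.1 and 19.9 CPM (-1.98 ± 0.16), all treated libraries lying far below the controls. Farsa, the alpha subunit that pairs with it, fell by 0.39 ± 0.15 on the log2 scale, so the subunit mRNAs of one enzyme moved by different amounts. Fars2, the mitochondrial phenylalanyl enzyme, was not called (-0.26 ± 0.22). Of the members fixed to be shown, Eprs fell from 453 and 446 CPM to 283 and 279.5 CPM (-0.68 ± 0.15), Tarsl2 fell from 19.3 and 14.4 CPM to 6.88 and 8.66 CPM (-1.12 ± 0.22), and neither Gars (-0.30 ± 0.15) nor Kars (-0.02 ± 0.16) was called.

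The THZ1 effects of the lines, which share no library, were compared across members. Over the 34 members in both tables Pearson's r was 0.939 and Spearman's rho 0.927 across genes, which are not independent replicates, and 31 had the same sign. Over all 8200 genes in both fits the values were 0.899 and 0.901, and 89.5% had the same sign. A total of 4 members were called higher in both lines and 23 lower in both. With 99.5% of all genes called in SMB56, these counts equal the calls in SMB56-shSufu. There 29.5% of all genes were called higher and 32.3% lower. The share of all genes called in both lines was not computed.

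Where the effects differed, they were lower in SMB56-shSufu. A test of the difference called 5 of 34 members lower and 0 higher (edgeR interaction term, with 9 and 1 at an unadjusted p under 0.05, and 8 and 0 called by DESeq2), beside 7.89% and 10.4% of 8204 genes (18.3% in all). Cars2 had 20.8 and 26.8 CPM against 19.3 and 20.6 CPM in SMB56-shSufu, where it was not called, and its difference from SMB56 was -0.90 ± 0.19 (edgeR adjusted p = 0.013). Farsb differed by -0.54 ± 0.16, Tars2 by -0.51 ± 0.14, Eprs by -0.44 ± 0.12 and Tars, the cytosolic threonyl enzyme, by -0.43 ± 0.13. None of the 5 stayed called when any 1 of the 4 SMB56 libraries was left out, or under scaling to mitochondrial transcripts. Fewer of all genes were called in each of these fits as well. The number of members called lower also depended on which SMB56-shSufu library was left out.

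Among 14 pairs of a cytosolic and a mitochondrial gene for the same amino acid under THZ1 in SMB56, both folds had the same sign in 10, and in 13 of 18 pairs in SMB56-shSufu. In SMB56 the cytosolic fold was the higher in 7 and the lower in 7. The gap, cytosolic minus mitochondrial, ran from -3.44 for Mars and Mars2 through -2.48 for Cars and Cars2 to 1.77 for Rars and Rars2. In SMB56-shSufu 9 of 18 pairs had the higher cytosolic fold, and the ends were again Mars with Mars2 (-2.93) and Rars with Rars2 (1.61). The threonine pair Tars and Tars2 had cytosolic log2 fold changes of -0.10 and -0.41 beside mitochondrial ones of 0.90 and 0.52 in the respective lines.

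**Figure D2:**
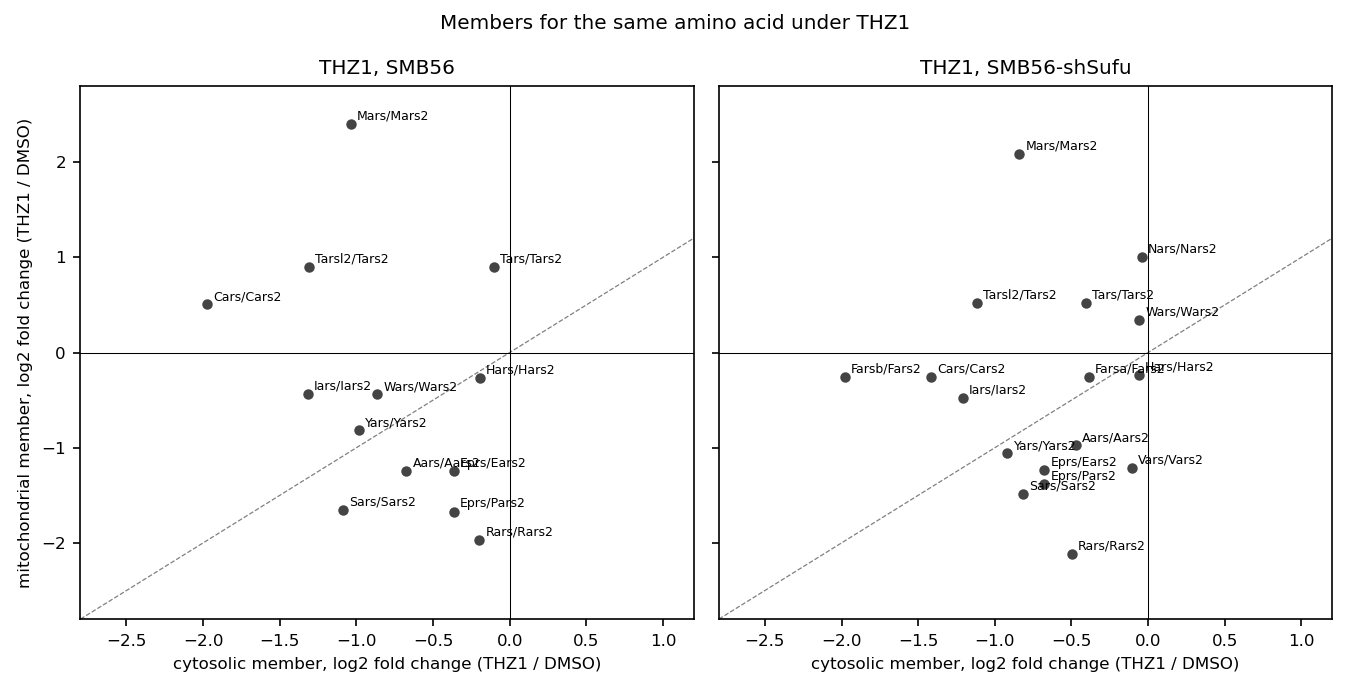
Each point is a pair of genes for one amino acid, with the log2 fold change of the cytosolic gene under THZ1 on the x axis and that of the mitochondrial gene on the y axis, in SMB56 (left) and SMB56-shSufu (right). The dashed line marks equal change. Mars with Mars2 sits highest above the line in both panels (2.40 and 2.09 on the y axis) and Rars with Rars2 farthest below it.

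Mars2 was the only member annotated with a single exon in GENCODE vM21 (GRCm38). Single-exon genes as a group had a median log2 fold change of 1.81 over 991 genes of the SMB56 THZ1 table and of 0.26 over 893 genes of the SMB56-shSufu table. The part of exon number in the rise of Mars2 was not tested. Across members, the fold under THZ1 had a Spearman rho of -0.18 with gene span in SMB56, against -0.20 over all genes, and of -0.11 in SMB56-shSufu, against 0.08. With the number of exons rho was -0.24 in SMB56 (-0.21 over all genes) and -0.28 in SMB56-shSufu (0.01). These are descriptions over 34 and 37 genes. In the same annotation 12 members share exonic bases with another gene, most of all Iars2 with Rab3gap2 (2034 bases, opposite strands) and Aars with Exosc6 (1326 bases, same strand). Hars and Hars2 share 195 bases on opposite strands. The strand setting of the counting was not stated, so the values of these genes are uncertain.

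GDC-0449 lowered the cytosolic set by a small amount. Of 35 members, 16 were called lower and 0 higher, of which 15 were cytosolic (of 21) and 1 mitochondrial (Yars2, of 14), beside 18.8% and 17.5% of 10008 genes called lower and higher (36.3% in all). At an unadjusted p under 0.05, 17 members were lower and 1 higher by edgeR, and DESeq2 called 11 lower and 0 higher. The median log2 fold change was -0.17 over the cytosolic and -0.06 over the mitochondrial members, and -0.01 over all genes. With 1 exception, Qars (0.04 ± 0.04), every cytosolic member had a fold below 0. The fit of all 10 libraries, whose spread also includes the more variable SMB56-shSufu libraries, called 0 of 32 members and 145 of 7244 genes for GDC-0449, with 6 members lower at an unadjusted p under 0.05.

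Vars had the deepest fall, from 352 and 365 CPM under DMSO to 274 and 287 CPM under GDC-0449 (-0.36 ± 0.03, edgeR adjusted p = 1.1e-09). Iars, the isoleucyl enzyme of the multisynthetase complex, fell from 183 and 188 CPM to 149.9 and 149.5 CPM (-0.31 ± 0.04). Kars fell from 205 and 221 CPM to 178 and 176 CPM (-0.27 ± 0.04). Gars fell from 317 and 319 CPM to 269 and 265 CPM (-0.25 ± 0.03), and Eprs from 513 and 516 CPM to 461 and 481 CPM (-0.13 ± 0.03). In these 5 genes the treated libraries were all below the controls. Of the mitochondrial genes that moved most under THZ1, Mars2 had 22.3 and 24.9 CPM against 20.9 and 21.9 CPM and Rars2 34.8 and 33.8 against 31.3 and 32.5 CPM, and neither was called. Tarsl2 had 24.2 and 23.9 CPM against 22.1 and 22.0 CPM and was not called either (-0.13 ± 0.09).

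**Figure D3:**
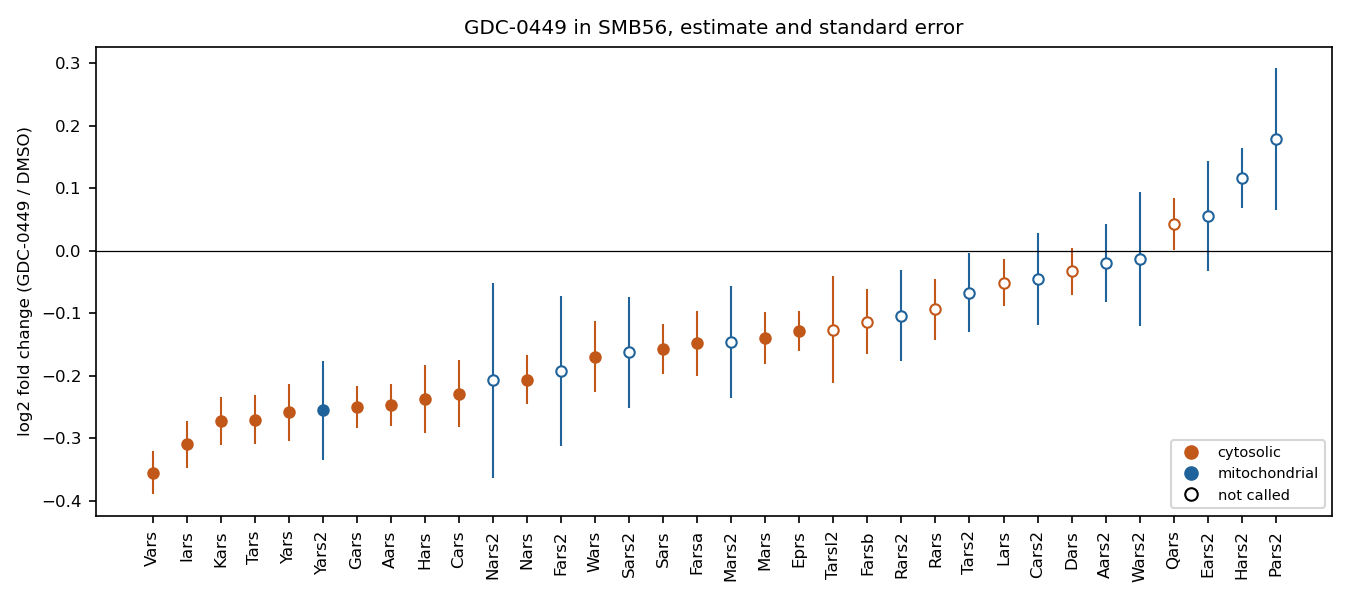
Log2 fold change of 34 members under GDC-0449 in SMB56, ordered by value, with its standard error as the bar. Filled points were called and open points were not (orange cytosolic, blue mitochondrial). All called members lie below 0, from Vars at -0.36 up to Eprs at -0.13, and Yars2 is the 1 mitochondrial gene among them.

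The cytosolic synthetases on a list of known amino acid response genes (Aars, Cars, Eprs, Gars, Iars, Lars, Mars, Nars, Sars, Tars, Vars, Wars, Yars) moved together under GDC-0449, with 12 of 13 called lower at a median of -0.23. Lars, the leucyl enzyme, was the exception (-0.05 ± 0.04). Of the 7 single-gene or subunit members outside that list (Dars, Farsa, Farsb, Hars, Kars, Qars, Rars), 3 were called lower at a median of -0.11. The 5 genes with the CARE letters shown above were all called lower (-0.25 for Aars and Gars, -0.31 for Iars, -0.27 for Tars, -0.26 for Yars). So were 4 of the 8 cytosolic genes whose window lacks them and 1 of 11 mitochondrial genes with a window. The cytosolic genes with no window used (Cars, Hars, Lars, Mars, Nars, Rars, Vars, Wars) enter neither count. Most of these were called lower, Vars among them (-0.36), while Lars was not. Whether the fall goes with the letters was not tested. On a list of amino acid response genes without synthetases 12 of 18 were called lower and 2 higher, beside 18.8% and 17.5% of all genes. The folds of that list ran from -0.69 to 0.42. Among those with a lower fold were Atf4 itself (-0.22) and the amino acid carriers Slc3a2 (-0.69) and Slc7a1 (-0.51). Asns, the asparagine synthetase (-0.21), and Phgdh, the entry enzyme of serine synthesis (-0.34), were also among them. The genes named here are all from the lower side, while 3 of the 18 had a fold above 0. The part of Atf4 in the fall of the synthetases was not tested.

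Under THZ1 these synthetases were lower while Atf4 mRNA was not. Of the 13 response synthetases, 11 were tested in SMB56 and all 11 were called lower at a median of -0.92, and 9 of 13 were lower in SMB56-shSufu at a median of -0.68. Atf4 mRNA was called higher in both lines (0.55 and 0.51), but stood at -0.05 and -0.16 on log2(FPKM + 1) and at -0.72 and -0.82 when scaled to mitochondrial-genome transcripts. For Atf4 and all other listed genes beyond the members, values under other scalings were approximated and not refitted. Ppp1r15a, a stress-induced phosphatase subunit, was higher (2.09 and 2.21) and stayed above 0 under each of those scalings. Of the response genes other than synthetases 12 of 17 were called lower and 4 higher in SMB56, beside 55.2% and 44.3% of all genes, and 10 of 23 lower and 7 higher in SMB56-shSufu, beside 32.3% and 29.5%, with Pck2 at -2.21 and -1.36 and Asns at -0.37 and -0.66. Of these calls 2 lower ones in SMB56 turned sign under relative log expression scaling (Phgdh and Slc3a2), and 2 higher ones in SMB56 and 5 in SMB56-shSufu when scaled to mitochondrial-genome transcripts. The CARE-bearing genes had a median of -0.67 in SMB56 and -0.47 in SMB56-shSufu, with 5 and 4 of 5 called lower. The 8 cytosolic genes whose window lacks the letters had medians of -0.73 and -0.75, with 6 called lower in each line.

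The multisynthetase complex holds 8 of the enzymes (Eprs, Iars, Lars, Mars, Qars, Rars, Kars, Dars) on the scaffold proteins Aimp1, Aimp2 and Eef1e1. Of the 8, THZ1 lowered 6 and raised 2 in SMB56, where 55.2% of all genes were called lower and 44.3% higher. It lowered 6 and raised 1 in SMB56-shSufu, beside 32.3% and 29.5% of all genes. With 99.5% of the genes called in SMB56, the calls there set neither the enzymes nor the scaffolds apart. Of the 8, Kars and Rars turned with the scaling in SMB56 as given above. All 3 scaffold genes were called lower in both lines, most of all Eef1e1 (-1.66 and -1.94), but Aimp1 in SMB56 (-0.19) stood at 0.12 under relative log expression scaling. Under GDC-0449 4 of the 8 enzymes and 2 of the 3 scaffolds were called lower, beside 18.8% of all genes, with Aimp2 at -0.47. Qars was the 1 enzyme of the complex called higher in both lines, and was below 0 when scaled to mitochondrial-genome transcripts.

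The synthetases divide into catalytic classes I and II by the fold of their active site. Under THZ1 in SMB56 cytosolic class I had a median of -0.92 over 9 genes and class II of -0.58 over 11, with Eprs counted in both. Under GDC-0449 the medians were -0.15 over 10 and -0.18 over 12. No test of this contrast was made.

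Other genes of tRNA charging were taken from fixed lists. Their counts under THZ1 stand beside 55.2% of all genes called lower and 44.3% higher in SMB56 and 32.3% and 29.5% in SMB56-shSufu. The mitochondrial amidotransferase, which makes glutaminyl-tRNA in place of a glutaminyl synthetase, had its subunit gene Gatc higher (0.71 in SMB56 and 0.75 in SMB56-shSufu, but -0.13 and -0.10 on log2(FPKM + 1)) and Qrsl1 lower (-1.69 and -1.93) under THZ1. In tRNA maturation and export 6 of 7 genes were called lower and 1 higher in SMB56, of which Rtcb (-0.19) was at 0.12 under relative log expression scaling and Ddx1 (0.25) at -0.11 under library size scaling. In SMB56-shSufu 5 of 11 were called lower and 1 higher (Tsen34, 0.44, or -0.30 on log2(FPKM + 1)). Thg1l, which adds the extra guanosine of histidine tRNA, fell by 2.73 and 3.02 on the log2 scale. The factors that deliver charged tRNA to the ribosome were split in SMB56, with 3 of 6 called higher (Eef1a1, Eef1b2 and Eef1g) and 3 lower (Tufm, the mitochondrial factor, at -0.78). The 3 higher ones were all below 0 when scaled to mitochondrial-genome transcripts (Eef1a1 at 0.66 against -0.62), Eef1g (0.48) was at -0.14 on log2(FPKM + 1), and Eef1d, among the lower ones (-0.29), was at 0.02 under relative log expression scaling. In SMB56-shSufu 2 of 6 were called lower and 0 higher. Of 3 selenocysteine and editing factors tested in SMB56 all were called lower, and in SMB56-shSufu 5 of 6 were called lower and 1 higher (Sepsecs, 0.78, or -0.55 when scaled to mitochondrial-genome transcripts).

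Under DMSO the SMB56-shSufu line held more cytosolic synthetase mRNA than SMB56. Of 35 members in the pair of tables used, 12 were called higher and 1 lower, beside 20.8% and 19.8% of 9719 genes (40.6% in all). The higher ones were 11 of 21 cytosolic genes (median 0.31) and 1 of 14 mitochondrial genes (median 0.04), and the all-gene median was 0.01. The lines differ in table and depth as well as in the hairpin, and these cannot be told apart. Rars had 96.7 and 97.0 CPM in SMB56 and 222 and 173 CPM in SMB56-shSufu (1.03 ± 0.14, edgeR adjusted p = 0.0046). Tars had 166 and 157 CPM against 295 and 305 CPM (0.89 ± 0.08), and Gars had 306 and 308 CPM against 517 and 556 CPM (0.81 ± 0.08). In all 3 both libraries of SMB56-shSufu were above both of SMB56. Hars2 was the 1 member lower, with 82.2 and 80.2 CPM against 53.9 and 61.6 CPM (-0.49 ± 0.10), and Rars2 the 1 mitochondrial member higher (0.56 ± 0.11).

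In 15 of 16 pairs the cytosolic gene had the higher fold between the lines, the exception being Tarsl2 with Tars2. Of 18 response genes other than synthetases, Atf4 among them, 10 were called higher in SMB56-shSufu and 1 lower. Their folds ran from -1.93 to 1.69, the latter for Atf4. Of the 5 genes with the CARE letters 4 were called higher, and of the 8 cytosolic genes whose window lacks them 4. Scaled to mitochondrial-genome transcripts, whose share was larger in SMB56-shSufu, the direction turned: the cytosolic median was -0.91, no member was higher and 30 were lower. Scaling by library size lowered the share of higher genes among those called from 51.3% to 38.4%, with 9 cytosolic and 1 mitochondrial members higher. Leaving out either SMB56 library lowered the number of members called higher and the number of all genes called. Leaving out either SMB56-shSufu library raised both. The cytosolic median was 0.34 and 0.28 without an SMB56 library and 0.27 and 0.45 without an SMB56-shSufu library.

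Set against each other in SMB56, at doses of 0.1 and 1 µM, THZ1 and GDC-0449 left 10 of 32 members higher under THZ1 and 18 lower, beside 39.4% and 50.5% of 7417 genes (89.9% in all). Mars2 (2.81 ± 0.07), Nars2 (1.73 ± 0.13) and Qars (1.30 ± 0.05) were highest, and Rars2 (-1.60 ± 0.13) and Pars2, the mitochondrial prolyl enzyme (-1.59 ± 0.19), were among those called lower. Pars2 had 13.5 and 13.7 CPM under DMSO, 5.45 and 2.97 CPM under THZ1 and, in the fit of the other table, 16.5 and 14.3 CPM under GDC-0449.

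Summed over the 19 cytosolic and 13 mitochondrial members in all tables, cytosolic mRNA was 5.41 and 5.25 times the mitochondrial FPKM in SMB56 under DMSO. The ratio was 4.32 and 4.34 under THZ1 and 4.71 and 4.93 under GDC-0449, with no overlap with DMSO. The ratio of the class medians overlapped between the groups, at 4.06 and 3.42 under DMSO, 3.94 and 4.71 under THZ1 and 3.02 and 3.74 under GDC-0449. In SMB56-shSufu the ratio of sums was 6.65 and 6.75 under DMSO and 6.36 and 6.22 under THZ1. Both sums fell under THZ1 in SMB56, from 655 and 642 to 323 and 323 FPKM for the cytosolic genes and from 121 and 122 to 74.7 and 74.4 FPKM for the mitochondrial ones, while under GDC-0449 the cytosolic sum fell to 582 and 572 FPKM and the mitochondrial sum was 124 and 116 FPKM. The members took 0.412% and 0.414% of all counts in the SMB56 THZ1 table under DMSO and 0.242% and 0.243% under THZ1, and 0.505% and 0.49% against 0.289% and 0.275% in SMB56-shSufu. The tables were normalised separately, so levels of the 2 lines are set side by side only.

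**Figure D4:**
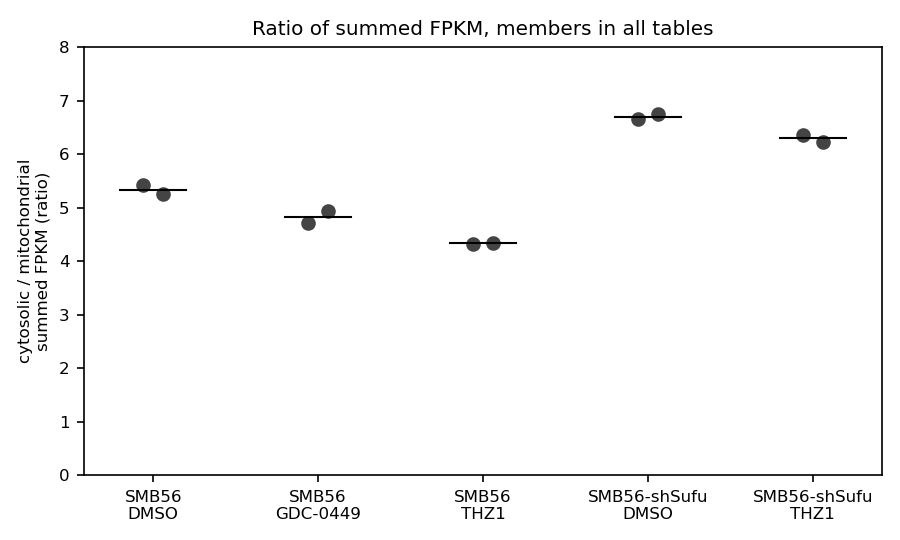
Ratio of summed cytosolic to summed mitochondrial FPKM in each library (points) and its group mean (line), over the members in all tables. In SMB56 the DMSO libraries (5.25 and 5.41) lie above those of GDC-0449 and of THZ1 (4.32 and 4.34), and all 4 SMB56-shSufu libraries lie above 6.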

How the data were processed

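RNA was sequenced in 10 libraries of 5 groups. Per the submitters' processing notes, STAR 2.5.3a, Cufflinks 2.2.1 and DESeq2 1.20.0 were used with the build hg19, with no role given; the deposited gene identifiers are mouse Ensembl IDs. The authors deposited raw counts, FPKM values, log2 fold changes and p-values per gene in 3 tables; the deposited log2 fold changes and p-values were used only to see how a table was selected. The SMB56-shSufu table also holds a mean signal and a test score by the authors, which were not used. Counts of the SMB56 DMSO libraries did not differ between their 2 tables (0 of 7417 genes).

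Counts were tested with edgeR 4.0.16 (R 4.3.3; TMM, filterByExpr, quasi-likelihood F test) across all genes of each comparison's own tables and libraries, with Benjamini-Hochberg adjustment and calls at an adjusted p under 0.05. Standard errors were derived from the F statistic. Each fit of 4 libraries has 2 residual degrees of freedom. The biological coefficient of variation was 2.27% for GDC-0449, 3.02% for THZ1 in SMB56 and 13.3% in SMB56-shSufu. Alternatives were other scalings, DESeq2 1.42.0, no filter, limma 3.58.1 on log2 FPKM with a mean of at least 1 and pseudocounts of 1 and 0.1, 1 fit of all 10 libraries, a replicate block and each library left out. For listed genes beyond the members these fits were not used. Their value under another scaling is the main fold plus the shift of the median of all genes. Their value on log2(FPKM + 1) is the log2 ratio of the group means of FPKM, each plus 1. Turns of sign near 0 among them are therefore approximate. The testing code was checked on simulated counts. Values in every library were given for Eprs, Gars, Kars and Tarsl2, and for up to 3 members of largest positive and negative fold per comparison among those called with groups that do not overlap, with their partners. The values of 1 member are not reported here, though counts, medians and correlations over the members hold it. The members, lists and motifs were chosen with earlier results of these data known.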

Additional observations from a re-analysis of the deposited data

Results flagged for a closer look

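The THZ1 effect differed between the lines for 5 members by the test of the difference itself, SMB56-shSufu minus SMB56 on the log2 scale. The differences were -0.90 for Cars2, -0.54 for Farsb, -0.51 for Tars2, -0.44 for Eprs and -0.43 for Tars. Cars2 and Tars2 were called higher in SMB56, and of these Tars2 was called higher in SMB56-shSufu as well, while Farsb, Eprs and Tars were called lower in both lines, Tars in SMB56 not under relative log expression scaling. No difference was called with any 1 SMB56 library left out.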

How the results depend on the processing

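Most values kept their direction and their side of the threshold. Scaling to mitochondrial-genome transcripts shifted the median of all genes by -1.27 (THZ1 in SMB56), -0.12 (GDC-0449), -1.32 (THZ1 in SMB56-shSufu), -1.24 (between the lines) and -1.42 (the compounds against each other). Members called higher then numbered 1, 0, 1, 0 and 1 in that order, those called lower 26 for GDC-0449, 30 between the lines and 28 for THZ1 against GDC-0449, and 0 of 34 differences between the lines were called lower. Reversed by it were Cars2 (-0.76), Kars (-0.98), Nars2 (-0.0091) and Qars (-0.18) under THZ1 in SMB56, Nars2 (-0.32) and Qars (-0.31) in SMB56-shSufu, Qars against GDC-0449 (-0.11), and, between the lines, Gars (-0.44), Rars (-0.18), Tars (-0.35) and the cytosolic median (-0.91).

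With FPKM at pseudocounts of 1 and 0.1, Cars2 was at -0.16 and -0.17 and Kars at -0.27 and -0.27 under THZ1 in SMB56. Members called higher numbered 1 in SMB56-shSufu and 4 against GDC-0449, those lower with GDC-0449 5, and differences between the lines 1. The cytosolic minus the mitochondrial median moved from -0.05 to 0.17 and 0.60 under THZ1 in SMB56, from 0.23 to -0.066 in SMB56-shSufu (pseudocount 1), and from -0.14 to 0.29 and 0.49 against GDC-0449. The FPKM fit was not run between the lines, whose tables were normalised separately. Library size scaling put Kars at -0.076 and gave 1 member higher with GDC-0449, 6 against GDC-0449 and 3 differences lower. Rars under THZ1 in SMB56 was 0.11 with relative log expression, 0.10 with DESeq2 and 0.056 in the fit of all libraries. Relative log expression put 51.3% of called genes higher in that comparison against 44.6%, library size 24.9% against 47.7% in SMB56-shSufu, library size 30.1% against 43.9% for the compounds against each other, and for differences between the lines 40.5% with relative log expression against 57.0%. On log2(FPKM + 1) the share of higher genes was 24.9% and 14.1% under THZ1 in SMB56 and SMB56-shSufu and 21.6% against GDC-0449, and scaled to mitochondrial-genome transcripts it was 15.0%, 11.5%, 1.96%, 0.27% and 4.84% in the order above. DESeq2 called 8 differences lower. In the fit of all libraries 0 members were lower with GDC-0449, 2 between the lines, and 1 difference was higher. Leaving out Tarsl2 put the class difference at 0.047 under THZ1 in SMB56 and at -0.00022 against GDC-0449.

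Leaving out 1 library gave class differences of -0.081 to 0.075 under THZ1 in SMB56 and -0.17 to -0.012 against GDC-0449. Members called between the lines numbered 4 to 22 higher and 0 to 5 lower, and differences 0 to 2 higher and 0 to 10 lower. The lowest numbers came without an SMB56 library. The replicate numbers were not shown to pair libraries (correlation of deviations 0.01 to 0.15 with 2 pairs), and the replicate block gave 6 members higher and 28 lower under THZ1 in SMB56, 16 lower with GDC-0449 and 5 differences lower, as without it. The cause of these changes was not tested. With 2 libraries a group, a fold that was not called in the more variable SMB56-shSufu libraries is not shown to be absent.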

Other observations

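Lars2, the mitochondrial leucyl enzyme, was left out by the rule on symbols. Its gene model took 0.0302% and 0.0288% of all counts in SMB56 under DMSO and 0.443% and 0.441% under THZ1. The latter is more than the 34 members of that table together (0.242% and 0.243%). Whether these counts stand for Lars2 mRNA alone was not tested. In SMB56-shSufu the shares were 0.00312% and 0.00309% under DMSO and 0.242% and 0.244% under THZ1. Under GDC-0449 it took 0.0182% and 0.0134%.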
